A study of Mus musculus with 32 samples.

Results

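The effect of losing thyroid hormone receptor beta was read here in uninjured livers of mice given thyroid hormone, as the 4 libraries of the group KO_T3_Oil against the 4 of the group WT_T3_Oil. These 8 of the 32 libraries of the series were taken by their titles, and their columns were found by the animal number in the labels. The series crosses a knockout of Thrb, the gene of the receptor, with triiodothyronine (T3) and with carbon tetrachloride (CCl4), a liver toxicant, in 8 groups of 4 mice. Every group was fed the PTU/LID diet, in which PTU is an inhibitor of thyroid hormone synthesis. In both groups compared, oil (olive oil in the sample source) was injected in place of the 0.4 µl/g CCl4 of the injured groups, which was given 9 times, 2 times a week, over 4 weeks. T3 was in the drinking water of both at 1 µg/ml in the last week, where other groups had PBS. The livers were collected for RNA 24 hours after the ninth and last injection. The genotypes are labelled wild type and thyroid hormone receptor beta knockout, with no allele, strain, age or sex. Each library has an animal number of its own, so the 4 replicates of a group are separate mice. The labels do not say whether the deletion is limited to one cell type.

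Thyroid hormone receptors are nuclear receptors that bind DNA with a retinoid X receptor partner. Without T3 they hold corepressors at many target genes, and with T3 they exchange these for coactivators, so that the same receptor can lower a gene in hypothyroid tissue and raise it once hormone is present. Liver has both receptor genes, Thrb and Thra, and the beta receptor is the main one of hepatocytes, where it drives hormone deiodination, lipid and cholesterol handling and oxidative metabolism.

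The libraries compared held 16985162 to 22501020 counts each. Kdm5d, Ddx3y, Uty and Eif2s3y, 4 Y-linked genes, held 0 counts over the 8 libraries, and Xist, which is transcribed from the inactive X, held 552.3 to 1403.3 CPM, that is counts scaled to the library's total, as in female mice. Alb, the albumin gene of hepatocytes, stood at 55238 to 79962 CPM in wild types and 99660.0 to 147129 CPM in knockouts (scaled with TMM factors, as are all CPM below). On the first principal component of the 8, with 55% of the variance, all 4 knockout libraries lay on one side and all 4 wild-type libraries on the other. The library farthest from its group was KO_T3_Oil replicate 2 among knockouts and WT_T3_Oil replicate 4 among wild types. The numbers in the column headers that follow the animal number run from 31 to 34 in KO_T3_Oil and from 35 to 38 in WT_T3_Oil, so whatever these numbers mark cannot be told apart from genotype. In liver RNA of this kind, fewer cells of a type and less RNA per cell cannot be told apart.

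Thrb (chromosome 14, 17660261 to 18038090, GRCm38) was lower in the knockouts but not absent. It stood at 44.03, 44.3, 60.6 and 43.2 CPM in WT_T3_Oil replicates 1 to 4 and at 33.7, 22.7, 32.5 and 29.004 CPM in KO_T3_Oil replicates 1 to 4; values by library below follow this order. The highest knockout library lay under the lowest wild-type library. The log2 difference, knockout minus wild type throughout, was -0.70 ± 0.21 (standard error, SE), with an adjusted p of 0.0207 by edgeR's quasi-likelihood test with Benjamini-Hochberg adjustment over all genes, the test behind every adjusted p given here. The call was lost without KO_T3_Oil replicate 2 or without WT_T3_Oil replicate 3, with an adjusted p of up to 0.0943. The labels do not say which part of the gene was deleted, and counts over a whole gene do not show whether the remaining transcript codes for a receptor. On PBS, Thrb averaged 59.02 ± 7.09 CPM in wild types and 35.9 ± 4.94 CPM in knockouts (SD, n = 4), a difference of -0.72 ± 0.21 that was not called (adjusted p = 0.167). Thra, the other receptor gene, did not differ beyond the spread of its libraries, at 14.5, 13.5, 17.2 and 11.7 CPM in wild types and 14.7, 11.1, 14.6 and 15.4 CPM in knockouts, a log2 difference of -0.03 ± 0.21 (adjusted p = 0.949).

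**Figure D1:**
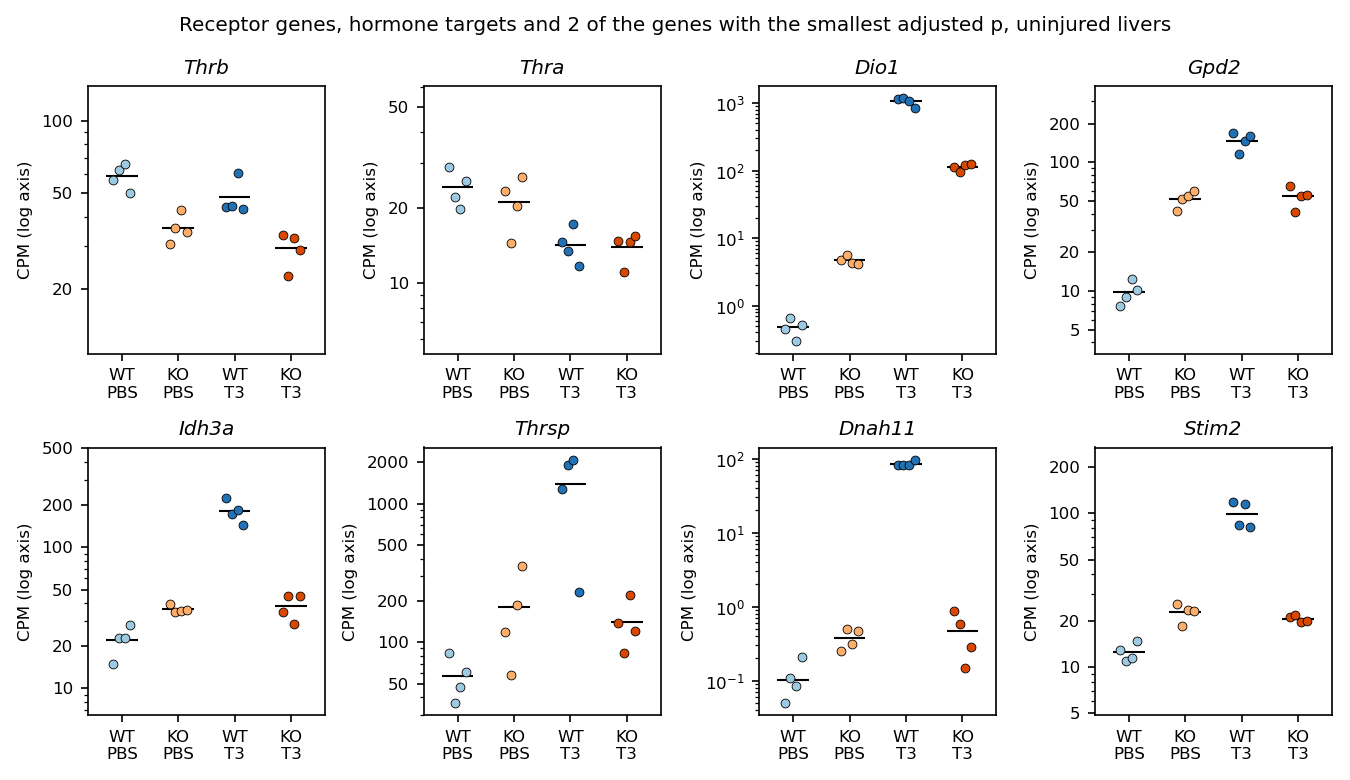
Levels in CPM on a log axis (points are libraries, lines are group means, n = 4) of 8 genes in the 4 oil groups, wild type (WT) and knockout (KO) with PBS or T3. Thrb averages lower in the knockouts of both treatments, a difference called on T3 and not on PBS; Dio1 averages 1067 CPM in wild types and 114 CPM in knockouts on T3, and 0.481 and 4.72 CPM on PBS, where the order of the genotypes is the other way round.

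Of 15599 genes tested, 2549 (16.3%) differed between knockouts and wild types on T3, 1113 of them higher (7.14%) and 1436 lower (9.21%) in knockouts. The median size of a called difference was 0.84 on the log2 scale. At 2-fold or more, 537 called genes were higher and 511 lower, and at 8-fold or more 99 were higher and 88 lower. The 4 and 4 libraries did not overlap for 3519 genes (22.6%), 10.9% of those tested being higher and 11.7% lower, and 2058 genes were both called and separated. Scaling by total counts alone called 4.87% of the genes higher and 11.8% lower, with the median of all genes at -0.11 against -0.00 under TMM, so changes below are relative to that shift. Without WT_T3_Oil replicate 1 the higher genes came to 693, and without both libraries farthest from their groups 1399 genes were called, 539 higher and 860 lower.

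**Figure D2:**
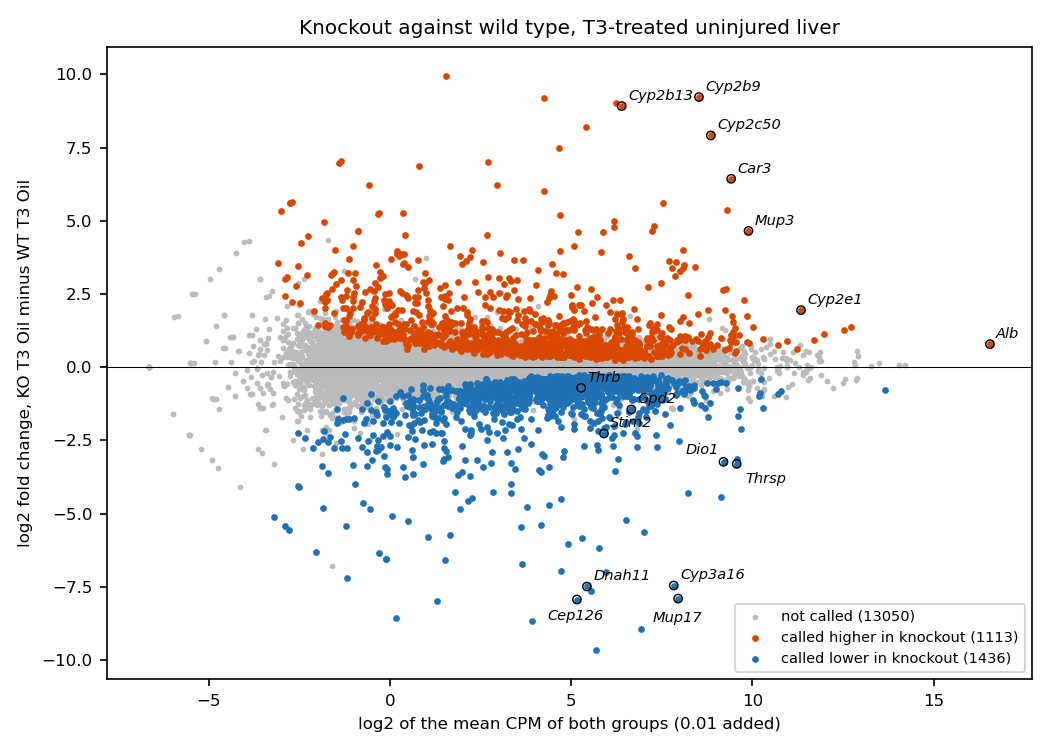
Each point is 1 of 15599 genes, with log2 of its mean CPM over both groups (0.01 added) on the x axis and the log2 fold change, KO_T3_Oil minus WT_T3_Oil, on the y axis; colours mark the 1113 genes called higher and the 1436 called lower. Cyp2b9, at 9.23, is among the largest rises and Mup17, at -7.90, among the largest falls, while Thrb itself sits at -0.70.

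Of 18 genes known to be raised by T3 in liver, 9 were called, all lower in knockouts, where 9.21% of all genes were called lower. Like all gene lists below, this one was written with earlier results of these data known, so its share is not an independent test. The list had a median log2 difference of -1.22 against -0.00 over all genes tested. Dio1 (chromosome 4, 107291465 to 107307169) encodes the type 1 deiodinase, which removes iodine from thyroid hormones. It stood at 1143, 1185, 1084 and 857 CPM in wild types and at 112, 96.7, 121 and 125 CPM in knockouts, a log2 difference of -3.23 ± 0.30 (adjusted p = 8.49e-09). No knockout library came near any wild-type library. Hr, a nuclear receptor corepressor that is itself induced by T3, stood at 25.5, 22.6, 44.9 and 35.04 CPM in wild types and 3.30, 2.60, 2.27 and 2.96 CPM in knockouts. Its groups did not overlap, and the log2 difference was -3.52 ± 0.52 (adjusted p = 1.99e-05).

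Others of the 9 act in mitochondria and in fatty acid synthesis. Gpd2 (chromosome 2, 57237635 to 57370719), the mitochondrial enzyme of the glycerol phosphate shuttle, stood at 168, 117, 146 and 161 CPM in wild types and 65.9, 41.3, 54.7 and 55.8 CPM in knockouts, a difference of -1.44 ± 0.19 (adjusted p = 4.18e-06). Idh3a, a subunit of the isocitrate dehydrogenase of the citric acid cycle, stood at 222, 171, 184 and 143 CPM in wild types and 34.6, 45.1, 28.5 and 45.02 CPM in knockouts, a difference of -2.23 ± 0.29 (adjusted p = 2.59e-06). Both genes were separated between the groups. Thrsp, the Spot 14 protein of fatty acid synthesis, stood at 1284, 1922, 2084 and 231 CPM in wild types and 138, 83.2, 218 and 121 CPM in knockouts, a difference of -3.30 ± 0.58 (adjusted p = 0.000178). Its lowest wild-type library, replicate 4, was close to the highest knockout library, and the other 3 were far above it. Me1, the malic enzyme that supplies NADPH, fell by 1.42 ± 0.33 (adjusted p = 0.00318), Bcl3, a nuclear partner of NF-kappa-B, by 1.74 ± 0.30 (adjusted p = 0.000122) and Ucp2, a mitochondrial carrier, by 0.79 ± 0.24 (adjusted p = 0.0242). The Ucp2 call was lost without any 1 of 4 libraries (KO_T3_Oil replicates 1 and 3, WT_T3_Oil replicates 1 and 4). Cyp7a1, the ninth, is described with the bile acid genes.

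The other 9 members did not pass the test, with log2 differences of -1.31 to 0.35. Fasn, the fatty acid synthase, is one of them and is described with lipogenesis. Klf9, a transcription factor with a known receptor site, stood at 57.5, 50.9, 55.3 and 49.3 CPM in wild types and 82.95, 31.2, 61.9 and 67.8 CPM in knockouts (log2 0.20 ± 0.42, adjusted p = 0.797). Pck1, the enzyme that commits oxaloacetate to glucose synthesis, had a log2 difference of 0.00 ± 0.63 (adjusted p = 0.998), and Cpt1a, which lets fatty acids into mitochondria, one of 0.33 ± 0.31 (adjusted p = 0.498). Wild-type and knockout libraries overlapped for all 3.

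Transcripts of the receptor's partners and of hormone handling were called in both directions. Of 17 genes of receptors, partners and coregulators, 5 were called lower and 1 higher, with a median of -0.09. Over all genes, 9.21% were called lower and 7.14% higher. Without WT_T3_Oil replicate 3, 3 of the 17 were lower. The coactivators Ncoa1 (-0.49 ± 0.12, adjusted p = 0.00394) and Ncoa2 (-0.50 ± 0.13, adjusted p = 0.00598) and the acetyltransferase gene Ep300 (-0.38 ± 0.12, adjusted p = 0.0274) were lower beside Thrb. The Ep300 call was lost without any 1 of 6 libraries (KO_T3_Oil replicates 2, 3 and 4, WT_T3_Oil replicates 1, 3 and 4). Rxrg, one of the retinoid X receptor genes, stood at 9.49, 7.59, 11.04 and 8.87 CPM in wild types and 14.1, 15.5, 13.1 and 13.3 CPM in knockouts, a difference of 0.60 ± 0.16 (adjusted p = 0.0121) with no overlap.

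Of 15 genes of hormone activation, transport and binding that were tested, 3 were called higher and 4 lower (7.14% and 9.21% over all genes). Serpina7 encodes thyroxine-binding globulin, the plasma carrier of thyroid hormone. It stood at 2.12, 1.06, 0.874 and 1.45 CPM in wild types and 42.6, 47.6, 76.8 and 34.3 CPM in knockouts, a difference of 5.19 ± 0.71 (adjusted p = 6.84e-06), and on PBS it averaged 542 CPM in wild types and 301 CPM in knockouts. Slco1b2, an uptake carrier of the sinusoidal membrane, rose by 1.96 ± 0.52 (adjusted p = 0.00934). Slc16a10, a transporter of aromatic amino acids and thyroid hormone, stood at 258, 217, 222 and 147 CPM in wild types and 93.8, 64.4, 80.2 and 101 CPM in knockouts (-1.31 ± 0.20, adjusted p = 2.51e-05). Ugt1a1, which conjugates bilirubin and iodothyronines, stood at 562, 512, 635 and 471 CPM in wild types and 294, 79.9, 279.9 and 233 CPM in knockouts (-1.30 ± 0.27, adjusted p = 0.00128), with KO_T3_Oil replicate 2 far below the other knockouts. Dio3, whose enzyme inactivates T3, was barely detected, with 15 counts over the knockouts and 1 over the wild types, a ratio of 17.3 (95% exact interval 2.665 to 729.1, counting error only). Its call was lost without WT_T3_Oil replicate 3.

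The 10 genes with the smallest adjusted p were all lower in knockouts. Dnah11 (chromosome 12, 117877982 to 118199043), an axonemal dynein heavy chain, stood at 83.3, 82.1, 81.8 and 97.2 CPM in wild types and 0.878, 0.592, 0.148 and 0.285 CPM in knockouts. Its log2 difference was -7.49 ± 0.34 (adjusted p = 3.25e-15), the smallest of the comparison. Cep126, a centrosomal protein gene on chromosome 9, stood at 83.7, 81.1, 83.8 and 36.3 CPM in wild types and 0.206, 0.651, 0.197 and 0.114 CPM in knockouts (-7.94 ± 0.46, adjusted p = 3.99e-13). WT_T3_Oil replicate 4 was below the other wild types for Cep126 and above them for Dnah11. B430219N15Rik, known only by a clone name, fell by 8.95 ± 0.49 (adjusted p = 2.72e-13), from 106 to 374 CPM in wild types to 0.285 to 0.64 CPM in knockouts.

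Others of this group kept a measurable level in the knockouts. Stim2, an endoplasmic reticulum calcium sensor, stood at 119, 83.5, 114 and 80.8 CPM in wild types and 21.3, 21.6, 19.6 and 20.001 CPM in knockouts (-2.27 ± 0.16, adjusted p = 2.57e-11). Slc37a3, of the sugar phosphate exchanger family, stood at 165, 144, 139 and 119 CPM in wild types and 33.7, 21.6, 32.7 and 32.4 CPM in knockouts (-2.24 ± 0.13, adjusted p = 3.99e-13). Ginm1, a membrane glycoprotein gene, stood at 104, 98.9, 108 and 94.6 CPM in wild types and 31.1, 31.3, 29.7 and 31.5 CPM in knockouts (-1.71 ± 0.11, adjusted p = 7.19e-12). The 4 knockout libraries lay close together for Stim2 and Ginm1. Lrrc8b, a subunit of volume-regulated anion channels, fell by 3.97 ± 0.22 (adjusted p = 2.83e-13), Fndc5, the precursor of irisin, by 4.70 ± 0.28 (adjusted p = 7.42e-13) and Anks1 by 2.17 ± 0.16 (adjusted p = 1.96e-10). The tenth was Cyp3a16, described below. The groups did not overlap for any of the 10, where 22.6% of all genes tested were separated. These 10 were chosen by their adjusted p in the same libraries.

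The largest rises and falls were taken among genes without overlap, so separation is no added result for genes named that way. The largest falls also held Adcy10, the bicarbonate-sensitive adenylyl cyclase, at 19.2 to 32.7 CPM in wild types and 0.0516 to 0.345 CPM in knockouts (-6.71 ± 0.58, adjusted p = 1.91e-09). Sult1e1, which sulfates oestrogens, fell by 7.65 ± 1.37 (adjusted p = 0.000244) but varied widely, at 201, 128, 42.5 and 2.33 CPM in wild types against 0.774, 0, 0.0493 and 1.03 CPM in knockouts. Its groups did not overlap, but WT_T3_Oil replicate 4 lay close to the knockouts. Col4a3, a basement membrane collagen, stood at 65.97, 116, 41.04 and 15.9 CPM in wild types and 0.981, 1.54, 0.69 and 0.456 CPM in knockouts (-6.03 ± 0.63, adjusted p = 5.09e-08). Sspo, which encodes SCO-spondin, stood at 223, 414, 260.0 and 105 CPM in wild types and 4.65, 7.51, 3.10 and 5.13 CPM in knockouts (-5.62 ± 0.63, adjusted p = 2.1e-07). WT_T3_Oil replicate 4 was again the lowest wild type for both. H2-Q1, an MHC class I gene with near-identical relatives, fell by 5.82 ± 0.48 (adjusted p = 7.04e-10) and the glucuronosyltransferase gene Ugt2b37 by 6.18 ± 0.48 (adjusted p = 2.26e-10). Of lower abundance were Wfdc16 (-8.67 ± 0.59, adjusted p = 4.86e-10), Glod5 (-6.58 ± 0.64, adjusted p = 4.39e-08) and the adhesion molecule gene Kirrel3 (-5.75 ± 0.57, adjusted p = 2.69e-08), each at most 36.3 CPM in wild types and at most 0.285 CPM in knockouts.

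Many of the largest rises were in genes of drug and steroid metabolism. Of 23 cytochrome P450 genes of drug metabolism and their regulators, 10 were called higher and 1 lower (7.14% and 9.21% over all genes). The median was 1.02. The largest rises included Cyp2b, Cyp2c, sulfotransferase and glucuronosyltransferase genes. Members of these families, and of the Cyp3a, Ugt and Mup families, are near-identical copies whose reads can be split or exchanged in counting, so the value of any one member is uncertain.

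Cyp2b9 (chromosome 7, 26173411 to 26210661) and Cyp2b13 (chromosome 7, 26061497 to 26096197) are neighbouring phenobarbital-type P450 genes that are higher in female than in male mouse liver. Cyp2b9 stood at 3.30, 1.51, 0.138 and 0 CPM in wild types and 809, 702, 725 and 711 CPM in knockouts, a difference of 9.23 ± 1.00 (adjusted p = 1.29e-07). Cyp2b13 stood at 0.613, 0.654, 0 and 0.132 CPM in wild types and 199, 160.3, 137 and 176 CPM in knockouts, a difference of 8.92 ± 0.93 (adjusted p = 5.95e-08). WT_T3_Oil replicates 3 and 4 held the least of both genes, and every wild type was far below every knockout library. On PBS both genotypes expressed them. Cyp2b9 averaged 591 ± 121 CPM in wild types and 749.4 ± 48.4 CPM in knockouts there, against 737 CPM in knockouts on T3. Cyp2b13 averaged 389 ± 142 CPM in wild types and 489.8 ± 54.4 CPM in knockouts there, and knockouts on T3, at 168 CPM, lay below both.

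The 250 bases before the starts of these genes are shown because 2 genes that moved together share nearly all of them: 248 of the 250 bases (99.2%) are the same. They are given 5′ to 3′ on the gene's strand, from RefSeq on GRCm38.p6, with the letters AGGTCA, the half-site that thyroid hormone and other nuclear receptors can bind, in capitals. The window of Cyp2b9 is chr7:26173159-26173408 (plus strand) and that of Cyp2b13 is chr7:26061245-26061494 (plus strand).
Cyp2b9: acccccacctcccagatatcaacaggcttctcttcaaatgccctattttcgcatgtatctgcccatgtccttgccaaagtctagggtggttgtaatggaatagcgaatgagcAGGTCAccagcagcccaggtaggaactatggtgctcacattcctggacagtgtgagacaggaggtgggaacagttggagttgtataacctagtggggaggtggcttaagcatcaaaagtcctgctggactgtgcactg
Cyp2b13: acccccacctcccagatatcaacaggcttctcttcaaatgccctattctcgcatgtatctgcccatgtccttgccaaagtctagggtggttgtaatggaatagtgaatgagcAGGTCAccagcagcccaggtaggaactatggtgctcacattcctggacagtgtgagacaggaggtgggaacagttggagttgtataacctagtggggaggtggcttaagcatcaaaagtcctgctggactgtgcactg
Each holds 1 half-site, with its first base 138 bases before the start. Over the 11347 tested genes with a promoter in the table, 13.6% hold AGGTCA on either strand in a window of the same length, 14.8% of those called lower and 14.9% of those called higher.

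The direct repeat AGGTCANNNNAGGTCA, the classical receptor element, was in 0 of the 11347 windows. With the third letter of each half-site left free (AGGNCANNNNAGGNCA, either strand, which includes the stricter repeat), 0.212% of all windows, 0.277% of those called lower and 0.643% of those called higher held it. These are 24, 3 and 5 genes. Hectd2os, an RNA gene on the strand opposite Hectd2, is one of the 5, and its window, chr19:36689480-36689729 (minus strand), is shown with the repeat in capitals, read here on the other strand.
Hectd2os: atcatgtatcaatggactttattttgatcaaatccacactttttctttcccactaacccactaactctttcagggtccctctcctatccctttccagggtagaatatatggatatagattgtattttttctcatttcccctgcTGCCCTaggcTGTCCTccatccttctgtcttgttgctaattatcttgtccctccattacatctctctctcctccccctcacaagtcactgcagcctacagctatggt
Hectd2os stood at 0.425, 0.201, 0.276 and 0.22 CPM in wild types and 57.3, 47.9, 28.8 and 68.9 CPM in knockouts (7.47 ± 0.93, adjusted p = 1.38e-06), and since the strand used in counting is not given, its reads cannot be told apart from those of Hectd2. The window of Dio1, shown for contrast as the first of the T3 targets above, is chr4:107307169-107307418 (minus strand).
Dio1: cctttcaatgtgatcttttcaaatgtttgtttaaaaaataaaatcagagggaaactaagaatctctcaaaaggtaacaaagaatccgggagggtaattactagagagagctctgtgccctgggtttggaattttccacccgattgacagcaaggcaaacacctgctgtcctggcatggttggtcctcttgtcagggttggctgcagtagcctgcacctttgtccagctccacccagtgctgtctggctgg
Neither the half-site nor the repeat is in these 250 letters of Dio1. A match is only a match of letters, and no binding was measured here.

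In the Cyp2c cluster of chromosome 19, Cyp2c50 (40089688 to 40113950) stood at 5.95, 5.78, 2.16 and 1.45 CPM in wild types and 1136, 758, 834 and 962 CPM in knockouts, a difference of 7.91 ± 0.81 (adjusted p = 4.45e-08). Its neighbour Cyp2c37 stood at 44.03, 31.1, 23.7 and 19.1 CPM in wild types and 1169, 1357, 1163 and 1204 CPM in knockouts, a difference of 5.37 ± 0.55 (adjusted p = 4.06e-08). The groups were far apart for both. Cyp2c54 rose by 9.03 ± 0.99 (adjusted p = 1.45e-07) and Cyp2c69 by 5.60 ± 0.66 (adjusted p = 5.74e-07).

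Among sulfotransferases, Sult3a2 had 0 counts over the wild types and 415 over the knockouts, at least 160-fold higher against a floor of 3 counts over the group. Sult3a1 rose by 9.19 ± 1.44 (adjusted p = 4.59e-05) and Sult2a7 by 7.01 ± 0.74 (adjusted p = 6.16e-08). Sult3a1 stood at 21.9, 33.8, 13.5 and 81.5 CPM in knockouts, with replicate 4 far above the others, and at no more than 0.142 CPM in wild types. Ugt1a9, a glucuronosyltransferase, rose by 6.01 ± 0.67 (adjusted p = 2.16e-07). Car3, carbonic anhydrase 3, which is abundant in adipose tissue, muscle and liver, stood at 26.2, 25.8, 6.85 and 3.73 CPM in wild types and 2108, 1090.3, 1213 and 989 CPM in knockouts (6.43 ± 1.06, adjusted p = 8.74e-05).

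Cyp3a genes split in direction. Cyp3a16 (chromosome 5, 145436309 to 145469723), a fetal and female Cyp3a, stood at 437, 498, 470.0 and 408 CPM in wild types and 3.92, 3.02, 1.38 and 1.99 CPM in knockouts (-7.46 ± 0.48, adjusted p = 4.78e-12). Cyp3a44, also higher in females, stood at 822, 1238, 1256 and 960.4 CPM in wild types and 75.6, 23.8, 38.1 and 61.3 CPM in knockouts (-4.43 ± 0.47, adjusted p = 6.2e-08). Both were near absent on PBS in either genotype, at 0.165 and 0.276 CPM for Cyp3a16 and 0.474 and 0.819 CPM for Cyp3a44. Cyp3a41a fell by 2.84 ± 0.71 (adjusted p = 0.00602). Cyp3a11, the main adult Cyp3a of drug metabolism, stood at 504, 35.8, 87.9 and 39.95 CPM in wild types and 1205, 736, 1045 and 1304 CPM in knockouts (2.68 ± 0.57, adjusted p = 0.00158), with WT_T3_Oil replicate 1 well above the other wild types and still under the lowest knockout.

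**Figure D3:**
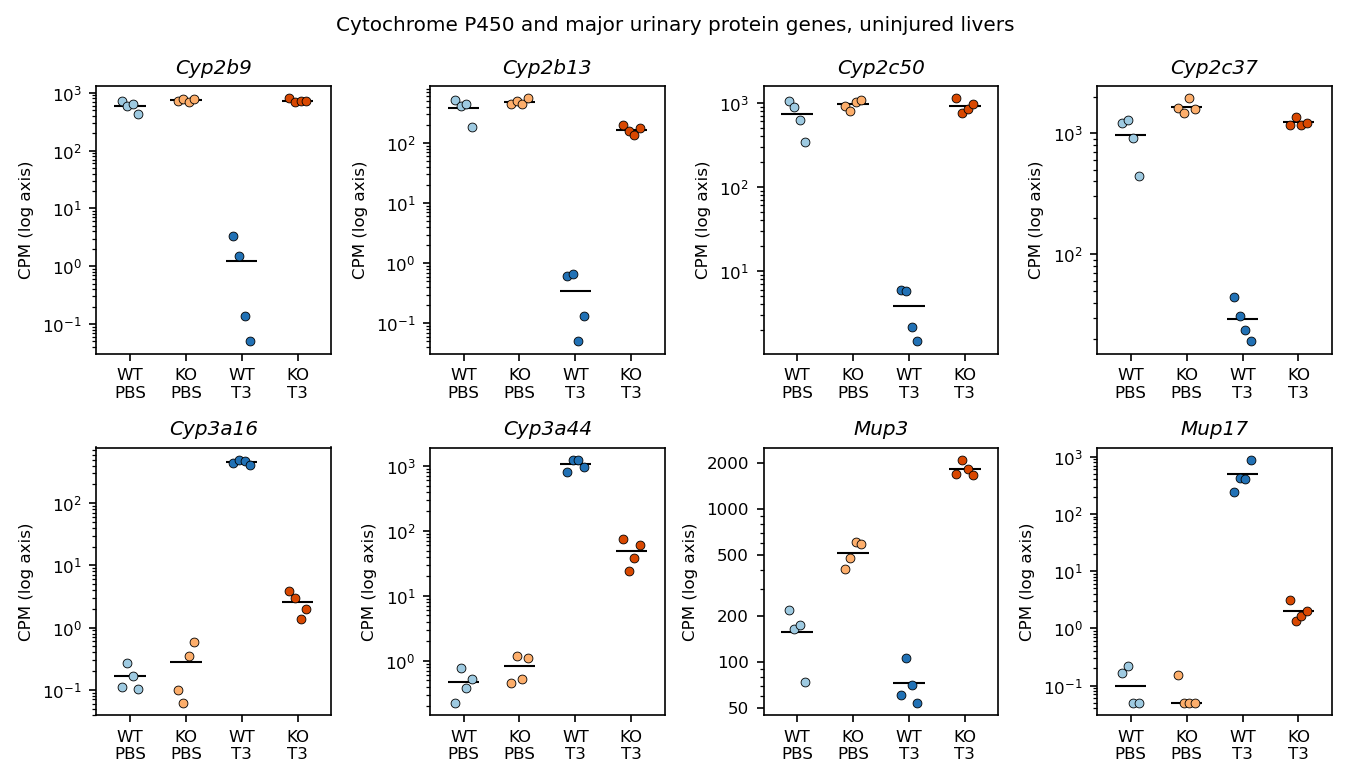
Levels in CPM on a log axis (points are libraries, lines are group means, n = 4; values under 0.05 CPM are drawn at 0.05) of 8 genes in the 4 oil groups. Cyp2b9, Cyp2b13, Cyp2c50 and Cyp2c37 are low in WT T3 and not in KO T3, while Cyp3a16, Cyp3a44 and Mup17 are high in WT T3, with Cyp3a16 at 408 to 498 CPM there and 1.38 to 3.92 CPM in KO T3.

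Genes that differ between the sexes in mouse liver were called both ways, in libraries with 0 counts of the 4 Y-linked genes named above. Of 20 female-biased genes, 6 were called higher and 7 lower, and of 13 male-biased genes tested, 6 were called higher and 3 lower. The medians were -0.28 and 2.10, and over all genes 7.14% were called higher and 9.21% lower. The major urinary proteins, pheromone carriers secreted by liver, account for 4 of the 6 male-biased rises. Of tested Mup genes, the male-biased list holds Mup3, Mup11, Mup20 and Mup21 but not Mup15, Mup17 and Mup18, which fell, or Mup22, which rose. Its counts and median depend on that choice. Mup3 stood at 60.5, 106, 70.4 and 54.2 CPM in wild types and 1703, 2108, 1836 and 1676 CPM in knockouts (4.65 ± 0.45, adjusted p = 1.34e-08). Mup20 rose by 2.75 ± 0.51 (adjusted p = 0.000316), and Mup21 held 253 counts over the knockouts against 2 over the wild types, a ratio of 146 (95% exact interval 40.02 to 1213, counting error only). Mup17 went the other way, at 244, 429.7, 411 and 888 CPM in wild types and 3.10, 1.36, 1.67 and 2.05 CPM in knockouts (-7.90 ± 0.73, adjusted p = 6.75e-09), and Mup15 fell by 9.67 ± 0.89 (adjusted p = 6.07e-08). Mup18 fell by 7.01 ± 0.65 (adjusted p = 2.18e-08), while Mup22 rose by 6.21 ± 0.84 (adjusted p = 9.85e-06). The groups were separated for all 7 of these Mup genes, which was a condition for those named as largest rises or falls. WT_T3_Oil replicate 4 held the most Mup17. The P450 gene Cyp2d9 rose by 2.69 ± 0.39 (adjusted p = 1.56e-05). Elovl3, a fatty acid elongase, stood at 39.03, 61.5, 51.9 and 51.3 CPM in wild types and 3.46, 2.07, 1.08 and 2.45 CPM in knockouts (-4.49 ± 0.42, adjusted p = 2.28e-08), and Selenbp2, a selenium-binding protein, fell by 3.02 ± 0.41 (adjusted p = 5.34e-06).

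The growth hormone axis sets many of the sex differences of liver. It had 2 of 16 tested genes higher and 2 lower (7.14% and 9.21% over all genes), with a median of 0.07. Members not called included Stat5b (-0.43, adjusted p = 0.0647), Ghr (0.33, adjusted p = 0.432), Igf1 (0.08, adjusted p = 0.844) and Cish (0.05, adjusted p = 0.933). Stat5a, a transcription factor of growth hormone signalling, stood at 82.5, 82.6, 72.7 and 80.8 CPM in wild types and 32.6, 38.2, 27.8 and 42.2 CPM in knockouts (-1.18 ± 0.14, adjusted p = 4.27e-07). Socs2, a feedback inhibitor of that signalling, stood at 7.41, 12.2, 10.7 and 13.7 CPM in wild types and 17.1, 38.7, 32.5 and 31.8 CPM in knockouts (1.45 ± 0.27, adjusted p = 0.000316). Neither overlapped between groups. Igfbp3, which carries insulin-like growth factors, rose by 1.23 ± 0.29 (adjusted p = 0.00366) and its relative Igfbp4 fell by 0.88 ± 0.22 (adjusted p = 0.00607).

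In lipid metabolism, synthetic genes were lower and oxidative genes higher where they passed the test. Of 20 lipogenesis genes, 4 were called, all lower, with a median of -0.63, where 9.21% of all genes were called lower. Without KO_T3_Oil replicate 2, 2 of the 20 were lower, near that share. Beside Thrsp and Me1 these were Scd2, a stearoyl-CoA desaturase, at 171, 125, 129.6 and 40.5 CPM in wild types and 24.1, 14.4, 27.9 and 21.4 CPM in knockouts (-2.41 ± 0.67, adjusted p = 0.013), and Acaca, the acetyl-CoA carboxylase that commits carbon to fatty acids (-0.75 ± 0.23, adjusted p = 0.0239). WT_T3_Oil replicate 4 was the lowest wild type for Scd2, whose call was lost without KO_T3_Oil replicate 2, and that of Acaca was lost without any 1 of 4 libraries (KO_T3_Oil replicates 2 and 4, WT_T3_Oil replicates 1 and 3). Fasn had a difference of -0.99 ± 0.44 that did not pass (adjusted p = 0.131), though it did with the 2 groups fitted alone. Scd1, the main desaturase of liver, stood at 11564, 10049, 11840.0 and 5247 CPM in wild types and 11914, 4640.0, 15340.0 and 8155 CPM in knockouts, with the ranges overlapping widely (0.05 ± 0.47, adjusted p = 0.96).

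Of 24 genes of fatty acid oxidation and ketogenesis, 5 were called, all higher, where 7.14% of all genes were called higher. The median was 0.37. With the 2 groups fitted alone 12 were higher, where 8.53% of all genes were. Acadm, the medium-chain acyl-CoA dehydrogenase, stood at 191, 171, 181 and 194 CPM in wild types and 427, 318, 393 and 392 CPM in knockouts (1.05 ± 0.21, adjusted p = 0.000968). Acaa2, the mitochondrial thiolase, stood at 441, 459, 476 and 479 CPM in wild types and 923, 789, 891 and 885 CPM in knockouts (0.91 ± 0.20, adjusted p = 0.00196). Neither overlapped. The fatty acid hydroxylase Cyp4a10 rose by 1.95 ± 0.48 (adjusted p = 0.00586) and the acyl-CoA thioesterase Acot1 by 2.48 ± 0.58 (adjusted p = 0.00359).

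Of 24 genes of cholesterol synthesis and uptake, 6 were called, all lower, with a median of -0.89, where 9.21% of all genes were called lower. Cyp51, the lanosterol demethylase, stood at 631, 571, 675.2 and 513 CPM in wild types and 293, 150.5, 235 and 241 CPM in knockouts (-1.38 ± 0.37, adjusted p = 0.0098). Idi1, the isopentenyl isomerase, stood at 72.9, 46.98, 87.3 and 46.98 CPM in wild types and 31.4, 5.80, 17.8 and 25.3 CPM in knockouts (-1.66 ± 0.49, adjusted p = 0.0202). Both were separated, and KO_T3_Oil replicate 2 was the lowest library for each. Hsd17b7 (-1.32 ± 0.31, adjusted p = 0.00317) and Lss (-1.12 ± 0.35, adjusted p = 0.0291), which makes lanosterol, were lower as well. The calls of Idi1 (KO_T3_Oil replicates 2 and 3, WT_T3_Oil replicates 1 and 3) and Lss (KO_T3_Oil replicates 2 and 4, WT_T3_Oil replicates 1 and 3) were lost without any 1 of 4 libraries each. How many passed depended on the libraries and the fit: 2 without KO_T3_Oil replicate 2, WT_T3_Oil replicate 1 or WT_T3_Oil replicate 3, 3 without KO_T3_Oil replicate 3, 1 without both farthest libraries, and 17 with the 2 groups fitted alone.

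Bile acid genes moved in both directions. Of 21 tested, 3 were called higher and 4 lower (7.14% and 9.21% over all genes), with a median of -0.24. Abcc3, which exports conjugates across the basolateral membrane, stood at 58.2, 46.2, 38.6 and 44.8 CPM in wild types and 472, 373, 557 and 569.6 CPM in knockouts (3.39 ± 0.31, adjusted p = 5.77e-09). Nr1h4, the bile acid receptor FXR, rose by 0.84 ± 0.24 (adjusted p = 0.0158), a call lost without KO_T3_Oil replicate 2 or WT_T3_Oil replicate 1. Cyp7a1, the rate-limiting enzyme of bile acid synthesis, stood at 344, 158, 147 and 139 CPM in wild types and 17.3, 57.97, 12.2 and 31.2 CPM in knockouts. Its groups did not overlap, yet the spread was wide (-2.73 ± 0.90, adjusted p = 0.0365) and the call was lost without any 1 of 5 libraries (KO_T3_Oil replicates 1, 3 and 4, WT_T3_Oil replicates 1 and 3). Cyp39a1, an oxysterol hydroxylase, stood at 212, 184, 192 and 164 CPM in wild types and 41.3, 18.5, 42.6 and 45.4 CPM in knockouts (-2.35 ± 0.25, adjusted p = 6.16e-08). Cyp7b1, of the alternative pathway, fell by 1.40 ± 0.29 (adjusted p = 0.00133) and Cyp2c70, which makes the muricholic acids of mice, by 1.41 ± 0.30 (adjusted p = 0.00148).

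Among apolipoproteins and genes of lipid export, 5 of 22 were called higher and 2 lower (7.14% and 9.21% over all genes). The median was 0.13, and without WT_T3_Oil replicate 1, 3 were higher. Apoa2, of high-density lipoprotein, stood at 3717, 4983, 3615 and 2874 CPM in wild types and 7554, 12731, 9419 and 9156 CPM in knockouts (1.36 ± 0.24, adjusted p = 0.00024). Apoa4 stood at 1543, 977, 1362 and 1507 CPM in wild types and 228, 294, 399 and 339 CPM in knockouts (-2.10 ± 0.44, adjusted p = 0.00138). Both were separated, in opposite directions. Apoc1 rose by 0.94 ± 0.22 (adjusted p = 0.00369), and Mttp, which loads lipid onto apolipoprotein B, fell by 0.75 ± 0.16 (adjusted p = 0.00125).

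Of 19 genes of gluconeogenesis and glucose use, 6 were called, all higher, with a median of 0.40, where 7.14% of all genes were called higher. Ppp1r3c, which brings a phosphatase to glycogen, stood at 8.59, 3.97, 3.27 and 4.17 CPM in wild types and 117, 102, 110.4 and 229 CPM in knockouts (4.80 ± 0.49, adjusted p = 3.86e-08). Ldha, lactate dehydrogenase, stood at 350.1, 323, 326 and 515 CPM in wild types and 747.3, 631, 860.0 and 768 CPM in knockouts (0.99 ± 0.20, adjusted p = 0.00092). Both were separated, with KO_T3_Oil replicate 4 the highest for Ppp1r3c. The gluconeogenic enzymes Pcx (0.67 ± 0.20, adjusted p = 0.0182) and Fbp1 (1.03 ± 0.33, adjusted p = 0.0291) rose less firmly. The Pcx call was lost without any 1 of 3 libraries (KO_T3_Oil replicates 3 and 4, WT_T3_Oil replicate 4) and that of Fbp1 without any 1 of 5 (KO_T3_Oil replicates 1 and 3, WT_T3_Oil replicates 1, 2 and 4). The count was 3 without KO_T3_Oil replicate 1 or WT_T3_Oil replicate 1, and 2 without KO_T3_Oil replicate 3 or WT_T3_Oil replicate 4.

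Of 23 genes of the respiratory chain and its shuttles, 6 were called, all lower, where 9.21% of all genes were called lower. The median was -0.16. Gpd2 and Ucp2, already counted among the T3 targets, are among the 6. Cox5a (-0.39, adjusted p = 0.0489) and Atp5a1 (-0.42, adjusted p = 0.047) passed only narrowly. Cycs, cytochrome c, stood at 96.3, 81.03, 80.5 and 80.8 CPM in wild types and 50.4, 56.4, 56.6 and 58.9 CPM in knockouts (-0.61 ± 0.11, adjusted p = 0.00037), with no overlap. Cox7a1, a cytochrome oxidase subunit, fell by 1.25 ± 0.43 (adjusted p = 0.0455), a call lost without any 1 of 6 libraries (KO_T3_Oil replicates 1, 3 and 4, WT_T3_Oil replicates 1, 2 and 3). The count was 2 without KO_T3_Oil replicate 3 or WT_T3_Oil replicate 1, and 3 without KO_T3_Oil replicate 4 or WT_T3_Oil replicate 2.

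**Figure D4:**
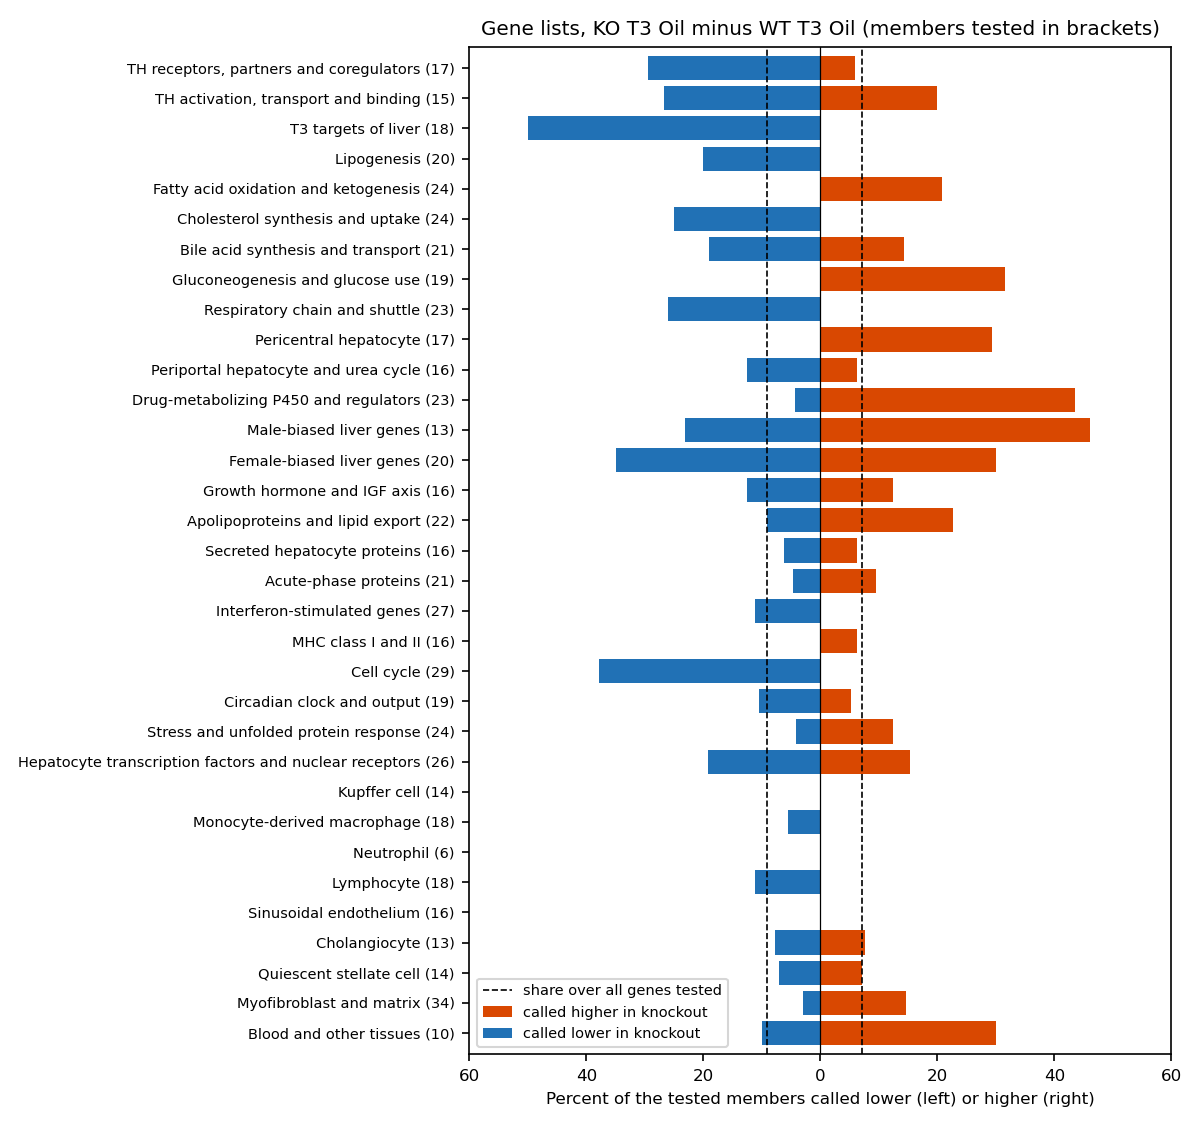
For each of the 33 gene lists, bars give the percent of tested members called lower (left) or higher (right) in KO_T3_Oil than in WT_T3_Oil, and dashed lines the shares over all genes tested, 9.21% and 7.14%. T3 targets and cell cycle genes reach farthest to the left, and male-biased genes and drug-metabolizing P450 genes farthest to the right. The male-biased bar depends on which Mup genes the list holds.

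Liver lobules are zoned, with different enzymes near the central and the portal vein. Of 17 pericentral genes, 5 were called in the main fit, all higher, where 7.14% of all genes were called higher, although the median was -0.31. Other fits also called members lower: 1 with DESeq2 or total counts, 2 with the 2 groups fitted alone and 3 with the replicate block added. In the main fit 9.21% of all genes were called lower. Cyp2e1, an ethanol-oxidising P450, stood at 1171, 1293, 933 and 889 CPM in wild types and 4508, 3799, 3860.1 and 4353 CPM in knockouts (1.95 ± 0.43, adjusted p = 0.00226). Oat, ornithine aminotransferase, stood at 118, 124, 79.2 and 46.6 CPM in wild types and 595, 421, 375 and 621 CPM in knockouts (2.45 ± 0.43, adjusted p = 0.000187). Both were separated. Rgn, which encodes regucalcin, rose by 1.73 ± 0.45 (adjusted p = 0.00873), the P450 gene Cyp1a2 by 1.82 ± 0.52 (adjusted p = 0.0164) and the glutamate carrier Slc1a2 by 1.82 ± 0.58 (adjusted p = 0.029). Glul, glutamine synthetase, which marks the innermost pericentral cells, stood at 1732, 1352, 1111 and 1198 CPM in wild types and 869, 1064, 734 and 1353 CPM in knockouts and did not pass the test (-0.42 ± 0.63, adjusted p = 0.695). Without WT_T3_Oil replicate 4, which ended the call of Cyp1a2, 3 were called, and that of Slc1a2 was lost without any 1 of 6 libraries (KO_T3_Oil replicates 1, 2 and 4, WT_T3_Oil replicates 1, 3 and 4). The summed levels of the list were 3907 to 5568 CPM in wild types and 7913 to 9600.0 CPM in knockouts, without overlap, and Cyp2e1 made most of the difference. Without it they were 3019 to 4275 CPM in wild types and 4053 to 5247 CPM in knockouts, and the ranges overlapped. Of 16 periportal and urea cycle genes, 1 was called higher and 2 lower, near the 7.14% and 9.21% over all genes. Hsd17b13, a lipid droplet protein, rose by 0.90 ± 0.20 (adjusted p = 0.00192). Arg1, the arginase of the urea cycle, fell by 0.93 ± 0.22 (adjusted p = 0.00355) and Slc25a15, the ornithine carrier, by 0.61 ± 0.19 (adjusted p = 0.027), the latter call being lost without KO_T3_Oil replicate 2, WT_T3_Oil replicate 1 or WT_T3_Oil replicate 3.

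Of 29 cell cycle genes tested, 11 were called, all lower in knockouts, where 9.21% of all genes were called lower. The median was -1.08. Ccnd1, cyclin D1, stood at 435, 218, 197 and 309 CPM in wild types and 92.04, 79.3, 104 and 106 CPM in knockouts (-1.60 ± 0.35, adjusted p = 0.00198). Rrm2, a ribonucleotide reductase subunit needed for DNA synthesis, stood at 84.1, 52.01, 36.9 and 48.7 CPM in wild types and 20.8, 5.92, 9.80 and 14.7 CPM in knockouts (-2.11 ± 0.34, adjusted p = 5.64e-05). For these 2 the groups were apart. Ccnb1, cyclin B1, stood at 15.8, 14.6, 3.59 and 11.5 CPM in wild types and 4.39, 1.30, 1.77 and 5.87 CPM in knockouts (-1.77 ± 0.46, adjusted p = 0.00811). WT_T3_Oil replicate 3 lay within the range of the knockouts. Foxm1, a mitotic transcription factor (-1.37 ± 0.37, adjusted p = 0.0105), Cdk1 (-1.24 ± 0.37, adjusted p = 0.0202) and Top2a (-1.31 ± 0.42, adjusted p = 0.0311) fell as well. The Foxm1 call was lost without KO_T3_Oil replicate 2 or 3, and those of Cdk1 (KO_T3_Oil replicates 2 and 3, WT_T3_Oil replicates 1 and 2) and Top2a (KO_T3_Oil replicates 2 and 3, WT_T3_Oil replicates 1 and 4) without any 1 of 4 libraries each. On PBS, Ccnd1 averaged 18.6 CPM in wild types and 27.2 CPM in knockouts, below both T3 groups. The count came to 3 without KO_T3_Oil replicate 2, 4 without KO_T3_Oil replicate 3 or WT_T3_Oil replicate 1, 2 without both farthest libraries, and 18 with the 2 groups fitted alone with the replicate number as a block.

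The lists also held markers of the other cells of liver. Of 14 Kupffer cell, 16 sinusoidal endothelial and 6 neutrophil markers tested, 0 were called in the main fit, with 2, 4 and 0 at an unadjusted p under 0.05. Their median log2 differences were -0.29, 0.23 and 0.22, and DESeq2 called 1, 0 and 0. With the 2 groups fitted alone, 2 Kupffer cell markers were called lower, and with the replicate block added 3. Total counts, or leaving out WT_T3_Oil replicate 2, gave 1. Of the endothelial markers, 1 was called higher without KO_T3_Oil replicate 1 or 4, and 1 with the 2 groups fitted alone with the block. Of 18 macrophage and 18 lymphocyte markers, 1 and 2 were called lower, near the 9.21% over all genes. The summed levels were 2850.5 to 3201 CPM in wild types and 1442 to 2459 CPM in knockouts for macrophages, 237 to 447 CPM in wild types and 67.1 to 159 CPM in knockouts for lymphocytes and 2932 to 3359 CPM in wild types and 1714 to 2742 CPM in knockouts for myofibroblast and matrix genes. In each of these the knockouts were lower without overlap, 0 markers were at 0 in either group, and 1 member made most of the difference. Fn1, fibronectin, which hepatocytes also secrete, is on both the macrophage and the myofibroblast list. It stood at 2534, 2554, 2889 and 2563 CPM in wild types and 1824, 1099.5, 2109.9 and 1997 CPM in knockouts and was not called (-0.58 ± 0.22, adjusted p = 0.0636), though it was by DESeq2 (adjusted p = 0.0387) and with scaling by total counts (adjusted p = 0.00791). Without it the sums were 297 to 596 CPM in wild types and 256 to 349 CPM in knockouts for macrophages, which overlapped, and 378 to 602 CPM in wild types and 604 to 654 CPM in knockouts for myofibroblast and matrix genes, now higher in knockouts, the ranges just apart. Without Ighm, the heavy chain of IgM, the lymphocyte sums were 50.7 to 95.1 CPM in wild types and 48 to 80.2 CPM in knockouts and overlapped. The sums of Kupffer cell markers, 1458 to 2371 CPM in wild types and 1150.4 to 1583 CPM in knockouts, overlapped. Ighm itself stood at 343, 273, 187 and 352 CPM in wild types and 19.1, 84.9, 43.6 and 27.5 CPM in knockouts (-2.72 ± 0.61, adjusted p = 0.00243). Gzmb, of cytotoxic cells, had a difference of -1.24 ± 0.42 (adjusted p = 0.0394), a call lost without any 1 of 7 libraries, all but KO_T3_Oil replicate 4. Mmp12, a macrophage elastase, stood at 1.46, 0.503, 0.69 and 8.30 CPM in wild types, with WT_T3_Oil replicate 4 far above the rest, and at 0.31, 0.71, 0.837 and 0.114 CPM in knockouts. Without that library its adjusted p was 0.337. The part of these cells in the cell cycle and immune gene differences was not tested.

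Of 34 myofibroblast and matrix genes tested, 5 were called higher and 1 lower (7.14% and 9.21% over all genes). The median was 0.49, although their sum with Fn1 was lower. Col12a1, a collagen of fibril surfaces, stood at 26.001, 21.8, 27.2 and 26.9 CPM in wild types and 3.41, 4.79, 3.89 and 4.62 CPM in knockouts (-2.61 ± 0.29, adjusted p = 1.79e-07). Lgals1, galectin 1, stood at 15.6, 12.5, 16.3 and 17.2 CPM in wild types and 41.3, 40.7, 31.4 and 34.8 CPM in knockouts (1.26 ± 0.22, adjusted p = 0.000135). Both were separated. Sparc (0.59 ± 0.19, adjusted p = 0.0296), Col14a1 (0.62 ± 0.21, adjusted p = 0.0392), Tagln (1.07 ± 0.36, adjusted p = 0.0409) and Myl9 (1.08 ± 0.37, adjusted p = 0.0435) passed the test, but the calls were lost without any 1 of 6 libraries for Sparc (KO_T3_Oil replicates 1, 3 and 4, WT_T3_Oil replicates 1, 2 and 3), 4 for Col14a1 (KO_T3_Oil replicates 1 and 3, WT_T3_Oil replicates 1 and 2), 6 for Tagln (KO_T3_Oil replicates 1, 2 and 3, WT_T3_Oil replicates 1, 2 and 3) and 7 for Myl9 (KO_T3_Oil replicates 1, 2 and 4, WT_T3_Oil replicates 1, 2, 3 and 4). The count of higher genes was 1 without KO_T3_Oil replicate 1, WT_T3_Oil replicate 1 or WT_T3_Oil replicate 2, 2 without KO_T3_Oil replicate 3 or WT_T3_Oil replicate 3, and 3 without KO_T3_Oil replicate 2 or 4. It was 10 with the 2 groups fitted alone and 1 with scaling by total counts. Quiescent stellate cell markers had 1 of 14 higher, Ecm1 (0.53 ± 0.16, adjusted p = 0.0252), and 1 lower. Cholangiocyte markers had 1 of 13 higher and 1 lower, Slc4a2 (-0.35 ± 0.10, adjusted p = 0.0166). The call of Ecm1 was lost without any 1 of 3 libraries (KO_T3_Oil replicate 2, WT_T3_Oil replicates 1 and 3).

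Of 10 markers of blood and other tissues that were tested, 3 were called higher and 1 lower (7.14% and 9.21% over all genes). The red cell genes Hba-a1 (1.01 ± 0.34, adjusted p = 0.0391) and Alas2 (0.93 ± 0.32, adjusted p = 0.0438) were higher, each call being lost without any 1 of 5 libraries (KO_T3_Oil replicates 3 and 4, WT_T3_Oil replicates 1, 3 and 4 for Hba-a1 and KO_T3_Oil replicates 1, 3 and 4, WT_T3_Oil replicates 1 and 4 for Alas2), and Hba-a1 shares reads with a near-identical copy. The third was Car3, and the summed levels of the list, Car3 included, were 189 to 467 CPM in wild types and 1457 to 2567 CPM in knockouts, without overlap. Without Car3 they were 163 to 441 CPM in wild types and 367 to 759.8 CPM in knockouts, which overlapped. The part of red cell RNA in other results was not tested. Cela1, an elastase, fell by 1.61 ± 0.26 (adjusted p = 8.13e-05). The pancreas, islet, fat and bladder markers Prss1, Amy2a5, Ins2, Adipoq and Upk3a did not pass the filter on low counts. In each group 5 members of the whole list were at 0.

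Of 27 interferon-stimulated genes, 3 were called, all lower, near the 9.21% called lower over all genes, with a median of -0.25. Gbp3, a guanylate-binding protein, stood at 278, 237, 280.0 and 289.6 CPM in wild types and 61.4, 45.3, 56.7 and 51.9 CPM in knockouts (-2.33 ± 0.35, adjusted p = 2.72e-05), and on PBS it averaged 2.99 and 5.80 CPM. Gbp2 fell by 1.11 ± 0.21 (adjusted p = 0.000435) and the RNA sensor gene Ifih1 by 1.09 ± 0.24 (adjusted p = 0.00176). All 3 were separated. Of 16 MHC genes 1 was called, Nlrc5, a transactivator of class I genes (0.73 ± 0.21, adjusted p = 0.0158), lost without KO_T3_Oil replicate 2 or WT_T3_Oil replicate 3.

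Of 26 hepatocyte transcription factors and nuclear receptors, 4 were called higher and 5 lower (7.14% and 9.21% over all genes). The median was 0.11, and without WT_T3_Oil replicate 1, 2 were higher. Cebpa, which drives hepatocyte differentiation, stood at 80.2, 128, 101 and 81.7 CPM in wild types and 239, 193, 253 and 254 CPM in knockouts (1.26 ± 0.27, adjusted p = 0.00167). Its relative Cebpb stood at 68.5, 102, 67.996 and 46.3 CPM in wild types and 13.99, 15.97, 20.3 and 28.8 CPM in knockouts (-1.85 ± 0.33, adjusted p = 0.000208). The 2 moved in opposite directions, each without overlap. Ppard stood at 127, 70.3, 124 and 83.4 CPM in wild types and 14.9, 17.7, 20.7 and 44.7 CPM in knockouts (-2.05 ± 0.41, adjusted p = 0.000799), while Pparg, of the same receptor family, rose by 0.98 ± 0.19 (adjusted p = 0.000597). Esrrg, an orphan receptor of energy metabolism, fell by 2.13 ± 0.33 (adjusted p = 3.31e-05).

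Plasma protein, stress and clock genes were called about as often as all genes (16.3%). Of 16 secreted hepatocyte proteins, 1 was called higher and 1 lower. Alb stood at 77095, 79962, 70897 and 55238 CPM in wild types and 147129, 99660.0, 123261 and 118221 CPM in knockouts (0.79 ± 0.23, adjusted p = 0.0169), separated but not called without KO_T3_Oil replicate 1 or WT_T3_Oil replicate 4. The summed levels of the list were 116081 to 146725 CPM in wild types and 157752 to 203199 CPM in knockouts, and without Alb 56933 to 66760.5 CPM in wild types and 56067 to 61414 CPM in knockouts, which overlapped. Ahsg, fetuin A, fell by 0.78 ± 0.22 (adjusted p = 0.0148). Of 21 acute-phase genes, 2 were called higher and 1 lower. Itih3, of the inter-alpha-trypsin inhibitors, rose by 1.32 ± 0.23 (adjusted p = 0.000205), Apcs, serum amyloid P, by 1.99 ± 0.42 (adjusted p = 0.00124), and Cp, ceruloplasmin, fell by 0.80 ± 0.23 (adjusted p = 0.014).

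Of 24 stress genes, 3 were called higher and 1 lower. The metallothionein Mt1 stood at 8.68, 5.83, 4.88 and 8.21 CPM in wild types and 173, 64.95, 114 and 71.2 CPM in knockouts (3.93 ± 0.79, adjusted p = 0.000852). Mt2 stood at 2.64, 2.77, 1.66 and 5.27 CPM in wild types and 96.2, 18.99, 51.7 and 27.2 CPM in knockouts (3.97 ± 0.84, adjusted p = 0.00135). The groups were apart for both, with KO_T3_Oil replicate 1 the highest. Trib3, a pseudokinase of the integrated stress response, rose by 2.83 ± 0.67 (adjusted p = 0.00402). Hmox1, haem oxygenase 1, had a difference of -0.60 ± 0.21 (adjusted p = 0.0484), a call lost without any 1 of 5 libraries (KO_T3_Oil replicates 1, 2 and 3, WT_T3_Oil replicates 1 and 4). Of 19 clock and output genes, 1 was called higher and 2 lower. Nfil3, a repressor of clock outputs, rose by 1.28 ± 0.33 (adjusted p = 0.00862), Bhlhe40 fell by 1.57 ± 0.42 (adjusted p = 0.0102), and Cry1 had a difference of -1.17 ± 0.41 (adjusted p = 0.049) whose call was lost without any 1 of 6 libraries (KO_T3_Oil replicates 1, 2 and 3, WT_T3_Oil replicates 1, 3 and 4).

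Whether the knockout effect depended on T3 was tested as an interaction, the genotype difference on T3 minus that on PBS in the oil groups. It was called for 1906 genes (12.2%), 871 toward higher (5.58%) and 1035 toward lower (6.64%). Without T3 the genotypes differed at 84 genes (0.538%), 63 higher (0.404%) and 21 lower (0.135%) in knockouts, and 1273 genes had an unadjusted p under 0.05. DESeq2 called 140, and without WT_PBS_Oil replicate 2 or KO_PBS_Oil replicate 4 edgeR called 46 and 55. Of the 84 genes, 52 (61.9%) were also called on T3, where 16.3% of all genes were called. They are 2.04% of the genes called there. These 2 comparisons share no library, but both come from 1 fit whose estimates of spread draw on all libraries. In 43 of the 52 the direction was opposite: of 36 genes lower in knockouts on T3, 35 were higher in knockouts on PBS, while of 16 higher on T3, 8 were higher and 8 lower on PBS.

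Dio1 shows this change of direction. On PBS it averaged 0.481 ± 0.152 CPM in wild types and 4.72 ± 0.643 CPM in knockouts, a log2 difference of 3.30 ± 0.38 (adjusted p = 6.32e-06), and the interaction was -6.53 ± 0.48 (adjusted p = 2.86e-10). Between PBS and T3 it rose by 11.12 ± 0.45 on the log2 scale in wild types and by 4.59 ± 0.33 in knockouts. Gpd2 averaged 9.79 ± 1.998 CPM in wild types and 52.1 ± 7.59 CPM in knockouts on PBS (2.41 ± 0.20, adjusted p = 2.05e-08), with an interaction of -3.85 ± 0.28 (adjusted p = 2.67e-10). The knockouts had nearly the same Gpd2 level on PBS and on T3, 52.1 and 54.4 CPM, and the wild types lay below it on PBS and above it on T3. Stim2 had the same pattern, at 12.5 CPM in wild types and 22.6 CPM in knockouts on PBS (0.86 ± 0.16, adjusted p = 0.00397). Of the 18 T3 targets, 4 were called on PBS, Dio1, Gpd2, Bcl3 and Me1, all higher in knockouts.

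**Figure D5:**
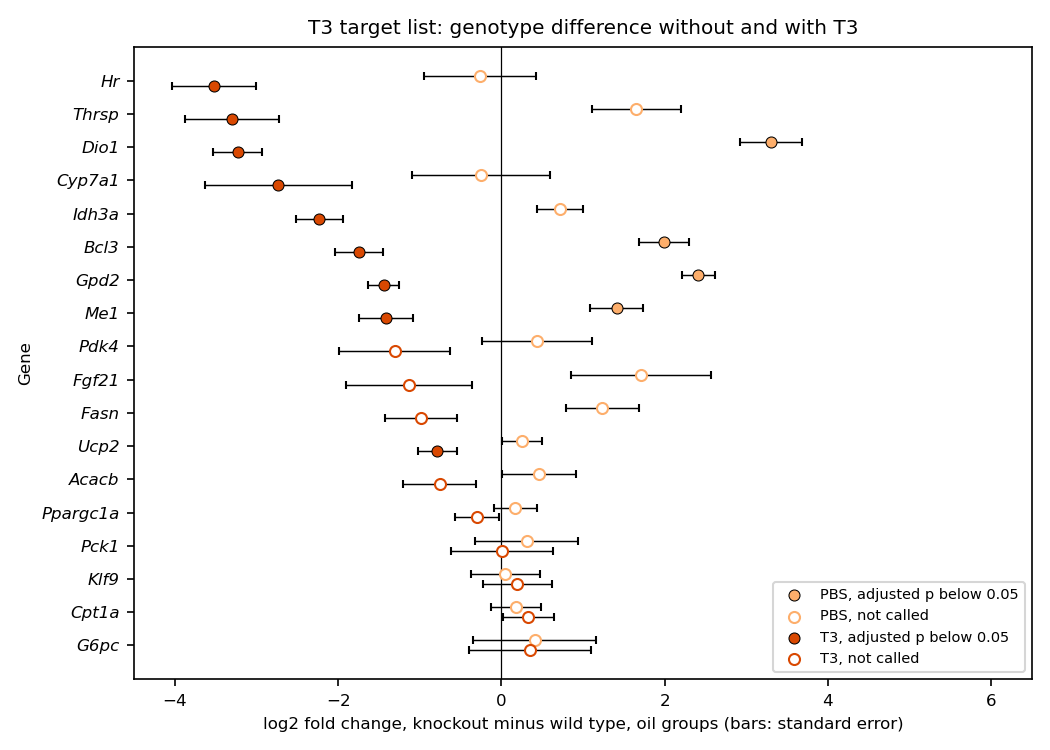
For each of the 18 genes of the T3 target list, the log2 fold change, knockout minus wild type, in the PBS oil groups and in the T3 oil groups, with bars of 1 standard error; filled points have an adjusted p below 0.05. On T3 the 9 filled points lie left of 0, and on PBS the 4 filled points (Dio1, Gpd2, Bcl3, Me1) lie right of it, Dio1 at 3.30 on PBS and -3.23 on T3.

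The interaction was also called for genes outside the target list. Dnah11 was near absent on PBS in both genotypes (0.101 and 0.381 CPM), and its interaction was -9.31 ± 0.69 (adjusted p = 2.89e-10). Slc37a3 averaged 27.1 and 30.02 CPM on PBS, with an interaction of -2.38 ± 0.18 (adjusted p = 2.89e-10). Adam11 went the other way: it averaged 54.5 CPM in wild types and 16.1 CPM in knockouts on PBS (-1.76 ± 0.27, adjusted p = 0.000462) and 0.897 and 10.9 CPM on T3 (3.58 ± 0.33, adjusted p = 6.08e-09). Lgals1 likewise was lower in knockouts on PBS (-1.16 ± 0.21, adjusted p = 0.00423) and higher on T3. For Thrb the interaction was 0.01 ± 0.30 (adjusted p = 0.99).

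The same genotype contrast in CCl4-injured mice on T3 shows which differences depended on injury. There 3566 genes (22.9%) were called, and the difference of the 2 genotype effects, oil minus CCl4, was called for 2099 genes (13.5%). Of the genes called in uninjured liver, 829 (32.5%) were called in injured liver too, which is 23.2% of the genes called there. Of these 829, 102 had the opposite direction and the others the same. The 2 comparisons share no library but come from the same fit. Dio1 differed by -3.14 ± 0.30 in injured liver and Gpd2 by -1.56 ± 0.19, with no difference of the effects called (-0.09 ± 0.39, adjusted p = 0.906, and 0.11 ± 0.27, adjusted p = 0.808). Dnah11, Cep126 and Cyp3a16 were also lower in injured knockouts, with log2 differences of -6.59 ± 0.34, -6.46 ± 0.43 and -6.41 ± 0.46.

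Of the 159 genes named here, 51 had a called difference of effects, against 13.5% of all genes, but most were named because they were called in uninjured liver. The ones below are among those with the smallest adjusted p. Cyp2c37 averaged 188 ± 167 CPM in injured wild types and 140.5 ± 50.8 CPM in injured knockouts, and the difference of effects was 5.80 ± 0.69 (adjusted p = 5.45e-05). Cyp2c50 averaged 58.5 ± 79.9 and 92.4 ± 23.4 CPM there (7.26 ± 0.95, adjusted p = 8.21e-05), and Cyp2c69 11.9 ± 11.4 and 5.08 ± 1.43 CPM (6.85 ± 0.86, adjusted p = 5.45e-05). For Cyp2c50 the SD of the injured wild types exceeded their mean. Mup-ps13, an annotated Mup pseudogene, fell less in uninjured liver, by 1.38 ± 0.31 (adjusted p = 0.00252) against -5.63 ± 0.41 in injured liver (4.25 ± 0.50, adjusted p = 5.45e-05). Zfp324, a zinc finger gene (-0.78 ± 0.21, adjusted p = 0.00984), and P3h1, a collagen prolyl hydroxylase (-1.05 ± 0.14, adjusted p = 6.84e-06), were lower in uninjured knockouts and higher in injured ones, the latter by 1.40 ± 0.20 and 0.40 ± 0.14 (difference of effects -2.18 ± 0.29, adjusted p = 0.0001, and -1.46 ± 0.20, adjusted p = 0.000179). The Zfp324 call in uninjured liver was lost without WT_T3_Oil replicate 1. Fewer genes had a called difference of effects without KO_T3_CCL4 replicate 3 (1293) or WT_T3_Oil replicate 4 (1328), and more with the groups fitted alone (3489).

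The genes within 10 Mb of Thrb on chromosome 14 were counted apart, since they may come with the knocked-out locus. Of 86 tested, with Thrb left out, 10 were called (11.6% against 16.3% over all genes), 3 higher and 7 lower. Pdhb (8165996 to 8173025), a subunit of pyruvate dehydrogenase, stood at 231, 223, 257 and 188 CPM in wild types and 116, 108, 119 and 98.4 CPM in knockouts (-1.02 ± 0.10, adjusted p = 3.83e-08). On PBS it was higher in knockouts (0.51 ± 0.10, adjusted p = 0.0123), the 1 gene of the 86 called there, where 0.538% of all genes were called. Rarb (16430839 to 16819156), a retinoic acid receptor gene, stood at 16.7, 14.1, 16.1 and 12.3 CPM in wild types and 6.76, 6.51, 7.73 and 4.73 CPM in knockouts (-1.20 ± 0.17, adjusted p = 7.5e-06). Neither overlapped. Abhd6, a lipase gene, fell by 0.97 ± 0.15 (adjusted p = 5.47e-05) and Ap3m1, of an adaptor complex, by 0.84 ± 0.18 (adjusted p = 0.00203). The predicted RNA genes Gm47920 (2.16 ± 0.42, adjusted p = 0.000621) and Gm26660 (1.46 ± 0.37, adjusted p = 0.00624) rose, from 0.22 to 0.506 and 0.283 to 0.834 CPM in wild types. The interaction with T3 was called for 10 of the 86 genes, near the 12.2% over all genes.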

How the data were processed

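RNA-seq of 32 mouse livers was deposited by the authors as 1 table of counts per gene (52636 genes, raw, per the file headers and the values), with a column for each animal. The submitters' processing notes name FastQC 0.11.5, Trim Galore, cutadapt, STAR 2.7.9a and GRCm38, with no order; the counting tool, strand setting and annotation were not given in the sources used here. Per the labels' protocols, libraries were made with TruSeq v2 or TruSeq Stranded kits, without saying which library had which, so an effect of the kit was not tested.

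Groups were taken from the titles. Of the genes, 52489 matched GENCODE vM21 identifiers, and the other 147 held at most 0.00558% of any library. Genes with low counts were removed by edgeR's filterByExpr (minimum count 10, minimum total 15), which left 15599 with at least 99.5% of each library's counts, before TMM scaling. All 8 groups entered 1 edgeR quasi-likelihood model (edgeR 4.0.16, R 4.3.3) without covariates, and contrasts gave the genotype effect in each pair of groups and the differences between effects. P-values were adjusted over all 15599 genes by Benjamini-Hochberg, and called means below 0.05. SE was approximated as the size of the log2 difference divided by the square root of the F statistic. The code was tested on simulated data. Depth was 16985162 to 22501020 counts in the groups compared. Intervals and floors (95%, 3 counts) cover counting error only.

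The genes and gene lists were chosen with earlier results of these data known. Genes were named by a rule: Thrb and Thra, up to 4 called members of each of 33 lists and up to 3 that ran against its majority, the 15 largest rises and falls with at least 5 CPM in either group and no overlap, the 10 smallest adjusted p, the 6 smallest of each interaction, and up to 6 within 10 Mb of Thrb. Some genes that meet it are not reported here. Bcl3, Cyp7a1, Ep300, Slc1a2, Tagln, Myl9, Lss, Mup20, Cyp2d9, Cyp3a11, Scd1, Fasn, Pck1, Cpt1a, Glul, Klf9, Cdk1, Top2a and Fn1 were added after their values were seen. Alternatives were other scalings, no filter, a block for replicate number, the groups fitted alone, a minimum fold of 1.5 (glmTreat), DESeq2 1.42.0 and each library left out. Marker sums were also taken without the member that differed most, which was added after seeing the data. Promoters were 250 bases before RefSeq starts on GRCm38.p6.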

Additional observations from a re-analysis of the deposited data

Results flagged for a closer look

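In groups of 4, the highest or lowest library was set apart where its gap to the nearest of the others exceeded Dixon's 95% critical value. Of 318 groups examined, 22 met it, and chance alone gives about 1 in 20. KO_T3_Oil replicate 1 was the highest for Esrrg (9.14 CPM). KO_T3_Oil replicate 2 was the lowest for Cyp39a1 (18.5 CPM), Slc25a15 (171 CPM), Ugt1a9 (15.3 CPM) and Slc37a3 (21.6 CPM). KO_T3_Oil replicate 4 was the highest for Ppp1r3c (229 CPM), Sult3a2 (14.6 CPM), Wfdc16 (0.285 CPM) and Ugt2b37 (2.39 CPM). WT_T3_Oil replicate 1 was the highest for Dio3 (0.0472 CPM), Ppp1r3c (8.59 CPM), Cycs (96.3 CPM), Cyp7a1 (344 CPM) and Cyp3a11 (504 CPM). WT_T3_Oil replicate 2 was the highest for Rgn (685 CPM). WT_T3_Oil replicate 3 was the highest for Thrb (60.6 CPM) and Fn1 (2889 CPM). WT_T3_Oil replicate 4 was the highest for Ldha (515 CPM), Hmox1 (74.2 CPM), Mmp12 (8.30 CPM) and Dnah11 (97.2 CPM) and the lowest for Cep126 (36.3 CPM). Their part in the results was not tested, apart from leaving out each library in turn.

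The genotype effect differed between T3 and PBS in the oil groups for 114 of the 159 genes named here, by edgeR's interaction test at an adjusted p under 0.05 over all genes tested. Over all genes tested, 12.2% did. Most of the 159 were named because they were called on T3, and some by their adjusted p in this interaction. A high share was therefore largely fixed by that choice and is no added result. Values are log2, the genotype difference on T3 minus that on PBS. The negative values, from the largest in size to the smallest, were Cyp3a41a -10.21, Glod5 -10.18, B430219N15Rik -9.40, Dnah11 -9.31, Cyp3a16 -8.19, Cep126 -7.62, Adcy10 -7.24, Ugt2b37 -6.98, Mup-ps13 -6.61, Dio1 -6.53, Elovl3 -6.12, H2-Q1 -5.88, Kirrel3 -5.81 and Col4a3 -5.43. Next in order of size came Fndc5 -5.21, Cyp3a44 -5.18, Thrsp -4.95, Sspo -4.71, Gpd2 -3.85, Ppard -3.77, Bcl3 -3.73, Lrrc8b -3.72, Apoa4 -3.56, Gbp3 -3.28, Hr -3.26, Cyp39a1 -3.25, Stim2 -3.12 and Idh3a -2.95. They were followed by Me1 -2.83, Scd2 -2.82, Cebpb -2.61, Cyp2c70 -2.60, Rrm2 -2.55, Col12a1 -2.49, Selenbp2 -2.47, Slc37a3 -2.38, Bhlhe40 -2.36, Esrrg -2.32, Fasn -2.22, Anks1 -2.18, Ccnd1 -2.15 and Stat5a -1.98. After these came Ginm1 -1.91, Cry1 -1.84, Slc16a10 -1.83, Cela1 -1.68, Cyp51 -1.55, Pdhb -1.53, Hsd17b7 -1.51, Gbp2 -1.48, Abhd6 -1.48, Ifih1 -1.36, Cyp7b1 -1.32, P3h1 -1.27, Acaca -1.22 and Ugt1a1 -1.21. Smaller values were those of Igfbp4 -1.18, Mttp -1.11, Arg1 -1.11, Ucp2 -1.04, Ap3m1 -0.98, Fn1 -0.96, Ahsg -0.95, Rarb -0.91, Cycs -0.84, Ncoa1 -0.57 and Slc4a2 -0.50. The positive values, from the largest in size to the smallest, were Cyp2c54 9.85, Mup21 9.18, Hectd2os 9.09, Cyp2b9 8.88, Cyp2b13 8.58, Sult3a2 8.27, Sult3a1 8.04, Cyp2c50 7.51, Mt2 7.14, Car3 7.07, Mt1 6.38, Serpina7 6.04, Ugt1a9 5.37 and Adam11 5.34. Next in order of size came Ppp1r3c 5.09, Cyp2c37 4.60, Dio3 4.60, Cyp2c69 4.41, Acot1 3.83, Abcc3 3.76, Sult2a7 3.71, Trib3 3.56, Oat 3.09, Mup3 2.94, Mup20 2.85, Cyp3a11 2.71, Cyp2e1 2.56 and Cyp2d9 2.55. They were followed by Cyp4a10 2.51, Apcs 2.43, Lgals1 2.42, Gm47920 2.17, Myl9 2.16, Socs2 2.10, Alas2 1.95, Igfbp3 1.94, Tagln 1.89, Itih3 1.49, Acadm 1.49, Pparg 1.45, Apoa2 1.43 and Cebpa 1.20. After these came Hsd17b13 1.11, Col14a1 1.04, Apoc1 1.02, Acaa2 1.00 and Rxrg 0.84.

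The genotype effect on T3 differed between uninjured and injured liver for 51 of these genes, by the same kind of test, and for 13.5% of all genes tested. The same limit of choice holds, since some were named by their adjusted p in this difference. Values are log2, the genotype difference with oil minus that with CCl4. The negative values, from the largest in size to the smallest, were Mmp12 -4.58, Ugt2b37 -3.10, Zfp324 -2.18, Lrrc8b -1.71, Tagln -1.67, Cp -1.66, Col12a1 -1.56, Ccnd1 -1.47, P3h1 -1.46, Gbp2 -1.13 and Slc37a3 -0.76. The positive values, from the largest in size to the smallest, were Sult3a1 11.95, Car3 7.40, Cyp2c54 7.27, Cyp2c50 7.26, Cyp2c69 6.85, Hectd2os 6.29, Sult2a7 6.13, Cyp2b13 6.04, Cyp2c37 5.80, Elovl3 5.74, Mup22 5.07, Cyp2b9 4.87, Mup21 4.48 and Cyp1a2 4.44. Next in order of size came Mup-ps13 4.25, Slc1a2 4.16, Cyp2e1 3.93, Cyp4a10 3.28, Esrrg 3.06, Slco1b2 2.91, Oat 2.71, Gm47920 2.64, Ugt1a9 2.60, Abcc3 2.60, Adam11 2.39, Cyp3a11 2.29, Rgn 2.08 and Cyp2d9 1.90. They were followed by Igfbp3 1.89, Ppp1r3c 1.86, Apoa2 1.82, Mup3 1.65, Socs2 1.49, Fbp1 1.48, Cyp7b1 1.46, Apoc1 1.25, Acadm 1.22, Acaa2 1.08, Nr1h4 1.00 and Ecm1 0.84.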

How the results depend on the processing

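Direction was kept by all 151 named genes that were called, under every alternative run, and 118 of them stayed called whichever library was left out. Most were named because they were called in the main fit. Every alternative reuses the same libraries, so a kept direction was largely fixed in advance. The call was lost for 0 genes with RLE factors or DESeq2, 3 with the replicate block, 5 with the compared groups alone, 6 with both, 9 with total counts, 10 without the filter, 34 without the 2 farthest libraries, 64 with a minimum fold of 1.5 and 8 to 24 with 1 library left out. Counts of called genes fell with a minimum fold of 1.5 to 536 (265 higher, 271 lower), of which 3 were near Thrb, and without the farthest libraries to 1399 (539 higher, 860 lower). This last alternative, and the groups alone with the block, were chosen after seeing the data. With 1 library left out the higher genes numbered 693 to 1065, those called on PBS 46 to 99, and those differing between uninjured and injured liver 1293 to 2366. DESeq2 called 140 on PBS, and the groups alone gave 3489 differences of effects by injury. For 4 genes that were not called the sign changed: Thra ran from -0.11 to 0.08 with 1 library left out, Klf9 from -0.00 to 0.41, Scd1 from -0.23 to 0.29 and Pck1 from -0.16 to 0.20. Scd1 was also -0.06 with total counts and -0.02 with the replicate block, and Pck1 -0.01 with RLE factors or DESeq2, -0.09 with total counts or without the farthest libraries, -0.02 without the filter, -0.06 with the replicate block and -0.04 with the groups alone and the replicate block. The cause was not tested. No pairing of the mice by replicate number was seen: deviations of same-numbered libraries correlated at 0.131, 0.0208, 0.0602 and -0.101, with 1 of 4 numbers best with its own. With 4 libraries a group, these values cannot exclude a pairing. The replicate block gave 2612 called genes against 2549. At this depth, genes under the filter were not tested, and those with a few counts, such as Dio3, have wide intervals.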
